A study of Mus musculus with 6 samples.

Results

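The histone chaperone genes Chaf1a, Chaf1b, Asf1a, Asf1b, Hira, Nasp, Nap1l1, Anp32e, Daxx and Atrx were examined in a mouse B cell line given siRNA against another histone chaperone, Spt6. The genes were chosen by name, and all 10 of the 10 were on the array, out of 16390 genes with a symbol; each had 1 probe, and every probe had a value on all 6 arrays and was tested. The samples were CH12F3-2A cells, a line derived from a B cell lymphoma that switches to IgA on stimulation. The siSpt6 group (3 samples) received siRNA against Spt6, the product of Supt6, and the siControl group (3 samples) received a control siRNA. Both siRNAs were delivered by electroporation; all cells were stimulated 24 h later with CD40L, IL4 and TGFb (together called CIT), and total RNA was taken after a further 24 h. A single line was thus measured after transient siRNA treatment, with no unstimulated or untransfected group among the samples used here. Each RNA was coupled to Cy5 and read on its own array as an intensity in arbitrary units. Separate cultures are not named in the labels, so a p-value reflects the spread among these samples alone, and that spread may be technical. The labels of the groups were written separately, and the concentration of 2-mercaptoethanol in the medium carries different units in them. The sources used here do not give whether both groups were transfected, labelled and hybridised together, so a batch that follows the group cannot be told apart from the siRNA.

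Histone chaperones are acidic or histone-binding proteins that escort histones from synthesis to DNA and keep them from aggregating on the way. New H3-H4 is bound by NASP and then by ASF1, which hands it either to CAF-1, a complex that deposits H3.1 and H3.2 behind the replication fork, or to HIRA, which deposits H3.3 outside replication. DAXX works with the remodeller ATRX to place H3.3 at heterochromatin and telomeres, NAP1L1 carries H2A-H2B, and ANP32E removes the variant H2A.Z. The RNAs of CAF-1 subunits and Asf1b are known to follow proliferation, as E2F targets do.

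Promoters of 5 of the genes are shown because the 4 that fell in siSpt6 cells can then be set against Asf1a, the paralog of Asf1b that did not pass the test. Each window runs from 250 bases before to 50 bases after the annotated start, on the strand of the gene, taken from RefSeq on GRCm38.p6; the sources used here do not name the build behind the array design. The windows are chr17:56040166-56040465 (plus strand) for Chaf1a, chr16:93883651-93883950 (plus strand) for Chaf1b, chr8:83955444-83955743 (plus strand) for Asf1b, chr3:95929007-95929306 (plus strand) for Anp32e and chr10:53596711-53597010 (plus strand) for Asf1a. Capitals mark 3 short motifs searched on both strands: GCGGGAA, a core of E2F sites (TTCCCGC on the other strand); CCAAT, the NF-Y box (ATTGG on the other strand); and TTTGAA, the cell cycle homology region known as CHR (TTCAAA on the other strand).
Chaf1a: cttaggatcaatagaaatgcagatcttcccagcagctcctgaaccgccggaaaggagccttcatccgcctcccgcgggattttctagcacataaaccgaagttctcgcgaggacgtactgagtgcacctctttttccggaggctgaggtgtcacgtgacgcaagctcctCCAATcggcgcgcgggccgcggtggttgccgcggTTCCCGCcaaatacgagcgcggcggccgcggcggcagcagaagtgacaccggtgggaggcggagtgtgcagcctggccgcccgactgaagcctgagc
Chaf1b: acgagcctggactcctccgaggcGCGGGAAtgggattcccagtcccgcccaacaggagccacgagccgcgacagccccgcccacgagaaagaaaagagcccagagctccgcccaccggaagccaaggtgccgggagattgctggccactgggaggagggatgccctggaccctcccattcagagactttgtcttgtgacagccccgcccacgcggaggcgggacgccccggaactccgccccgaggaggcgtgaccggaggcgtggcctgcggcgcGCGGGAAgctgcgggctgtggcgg
Asf1b: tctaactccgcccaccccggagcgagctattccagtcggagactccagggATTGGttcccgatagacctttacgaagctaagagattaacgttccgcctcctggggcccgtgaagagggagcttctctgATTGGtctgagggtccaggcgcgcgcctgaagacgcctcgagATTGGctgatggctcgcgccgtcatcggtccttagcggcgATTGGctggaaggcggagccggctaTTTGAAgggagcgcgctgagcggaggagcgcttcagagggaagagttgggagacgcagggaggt
Anp32e: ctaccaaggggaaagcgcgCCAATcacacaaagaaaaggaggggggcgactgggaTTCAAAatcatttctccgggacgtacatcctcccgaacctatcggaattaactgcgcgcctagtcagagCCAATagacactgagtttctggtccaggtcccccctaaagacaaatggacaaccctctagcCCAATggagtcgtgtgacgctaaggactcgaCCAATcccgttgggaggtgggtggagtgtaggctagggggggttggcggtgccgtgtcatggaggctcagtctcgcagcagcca
Asf1a: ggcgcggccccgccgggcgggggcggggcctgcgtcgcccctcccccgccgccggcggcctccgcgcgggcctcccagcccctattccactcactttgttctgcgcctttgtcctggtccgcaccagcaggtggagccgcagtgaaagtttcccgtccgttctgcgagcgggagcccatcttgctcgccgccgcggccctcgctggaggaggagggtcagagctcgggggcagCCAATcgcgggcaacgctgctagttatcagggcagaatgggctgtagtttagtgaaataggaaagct

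GCGGGAA was found in the windows of 3 of the 10 genes, Chaf1a, Chaf1b and Nap1l1, against 5.29% of the 27025 genes with a window (4.6% of all 32851 windows). In Chaf1a it starts 47 bases before the start on the opposite strand, and in Chaf1b it occurs at 227 bases before and 27 bases after the start on the strand of the gene. CCAAT was found for 8 of the 10 genes (in at least 1 of the 3 windows of Daxx), against 41.1% of genes counted the same way (37.4% of windows). Asf1b and Anp32e each held 4 copies, all on the opposite strand in Asf1b and all on the strand of the gene in Anp32e, and Atrx, which did not pass the test, also held 4. TTTGAA was found for Asf1b, Anp32e and Nasp, against 20.2% of genes (17.9% of windows); in Asf1b it starts 14 bases before the start, downstream of the last CCAAT copy. The longer E2F letters TTTGGCGC, TTTCGCGC, TTTCCCGC and TTTGCCGC, of which TTTCCCGC contains the shorter core, were in none of the members' windows, against 2.6% of genes (2.26% of windows). GCGGGAA was chosen after these windows were seen, so its count beside the share of all genes tests nothing. The letters of all these motifs are a description of the windows only. The windows of the 5 genes shown held 16 CpG dinucleotides in Anp32e and 27 to 32 in the other 4, against a median of 7 and an upper quartile of 20 over all windows.

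The 6 arrays had values for 21526 to 22372 of 23473 probes, and their median intensities agreed within 0.00109 on the log2 scale. Pearson's r of log2 intensities across the 20336 probes with 6 values was 0.988 to 0.991 within groups and 0.975 to 0.981 for pairs of a siSpt6 and a siControl array, with probes that are not independent of each other. Precision is limited by having 3 arrays in each group. Of 8 B cell markers tested, 6 lay above 100 on all arrays, and Pax5 and Ighm were the dimmer ones. The summed intensity of all 8 was 35513 to 38884 in siSpt6 and 34217 to 39127 in siControl. Cd74, the brightest of them, read 15472 to 19174 in siSpt6 and 19987 to 22068 in siControl. Cd79b rose and Cd22 fell (limma adjusted p = 0.0391 and 0.0281). Each call was lost in 5 of the 6 fits that left out 1 array (adjusted p up to 0.104 and 0.0830). Both calls held after quantile (adjusted p = 0.00675 and 0.0354) and cyclic loess normalization (adjusted p = 0.00495 and 0.0437). Blnk was also called higher after cyclic loess (adjusted p = 0.0477), but not after quantile normalization (adjusted p = 0.0603). None of 6 T cell, 5 myeloid and 3 erythroid markers lay above 100 on all arrays, with sums of 45.3 to 53.2, 79.7 to 87.5 and 46.1 to 57.6 in siSpt6 and 45.4 to 63.1, 67.1 to 84.4 and 56.6 to 66.4 in siControl. The probe for Supt6, the siRNA target, read 25.1, 21.8 and 28.1 in siSpt6 and 33.1, 32.1 and 32.1 in siControl. Its groups did not overlap, but the log2 change of -0.38 (SE 0.13) missed the threshold of 0.05 on the adjusted p (limma, Benjamini-Hochberg over all 21584 tested probes, adjusted p = 0.0973), and passed it after cyclic loess normalization (adjusted p = 0.0491). The sources used here do not place that probe on the transcript, so the direction of each comparison rests on the labels.

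In siSpt6 cells the RNAs of the CAF-1 subunits Chaf1a and Chaf1b and of the replication-linked ASF1 paralog were lower, while the third CAF-1 subunit, Rbbp4, and the H3.3 chaperones Hira, Daxx and Atrx did not pass the test. Of the 10 genes 4 fell and 0 rose (Chaf1a, Chaf1b, Asf1b and Anp32e), against 8.9% of all tested probes called lower and 7.43% called higher. All 10 log2 changes were below 0, from -1.004 to -0.21, with a median of -0.51; the median over all tested probes was 0.01. In 8 of the 10 genes every siSpt6 value lay below every siControl value, which was so for 20.4% of probes with 6 values; 37.3% did not overlap in either direction. The genes were chosen with earlier results of these data known, so these counts describe them and test nothing about them as a set.

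**Figure D1:**
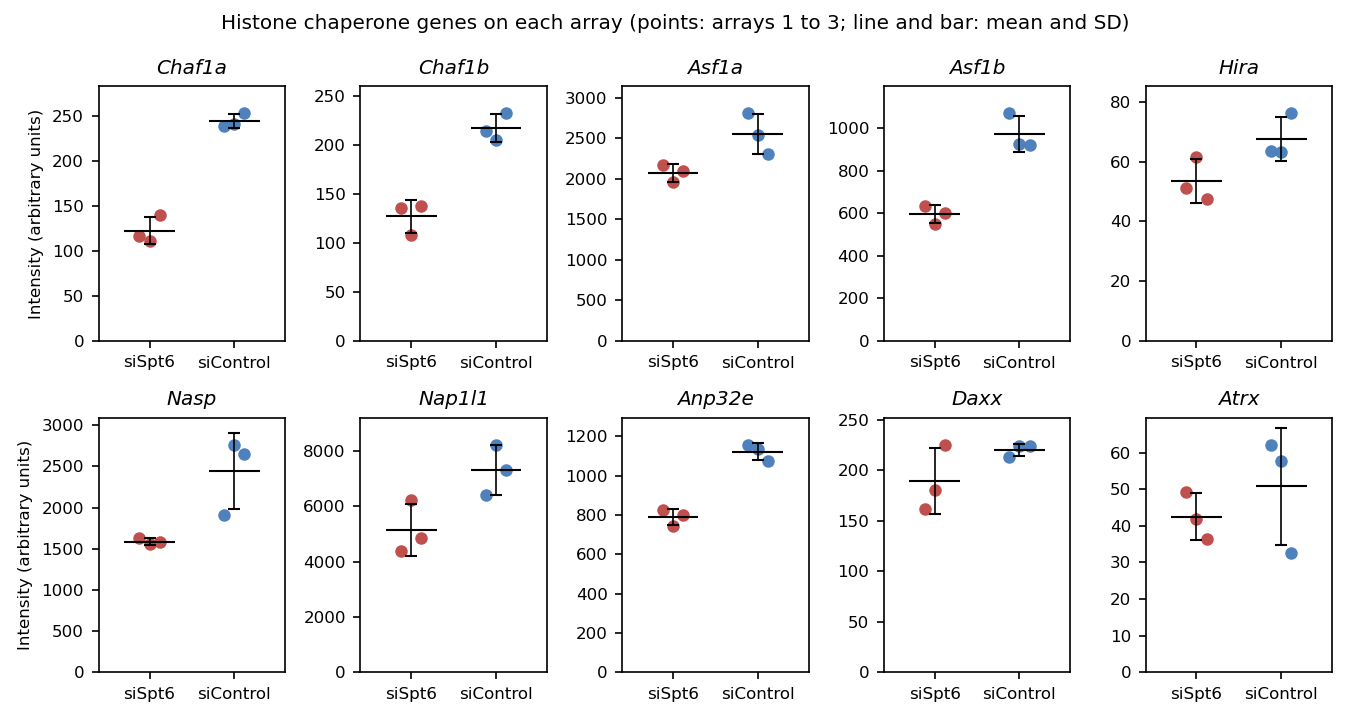
Intensity (arbitrary units, linear axes from 0) of each of the 10 chaperone genes on the 3 siSpt6 arrays (left) and the 3 siControl arrays (right); points are arrays, the line and bar are the mean and SD. The groups overlap only for Daxx and Atrx, and Chaf1a shows the widest separation, at 111 to 140 against 239.6 to 253.

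CAF-1 deposits H3-H4 on newly replicated DNA. Chaf1a, which encodes its large subunit and binds the clamp PCNA, read 116, 111 and 140 in siSpt6 and 239.6, 241 and 253 in siControl. The groups were far apart, and every siSpt6 array was well below the lowest siControl array. The means were 123 ± 15.2 in siSpt6 and 245 ± 7.50 in siControl (SD, n = 3 each), a 2.01-fold lower level in siSpt6 (log2 change -1.004, SE 0.13, 95% interval -1.31 to -0.70, limma adjusted p = 0.00411). Of all tested probes, 2.00% had a lower log2 change.

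Chaf1b, the middle subunit of CAF-1, read 136, 108 and 138 in siSpt6 and 215, 205 and 233 in siControl. All siSpt6 arrays were lower, replicate 2 most of all. The means were 127 ± 16.8 in siSpt6 and 217 ± 14.0 in siControl (SD, n = 3 each), a 1.72-fold lower level in siSpt6 (log2 change -0.78, SE 0.14, 95% interval -1.11 to -0.44, limma adjusted p = 0.0125). The third subunit, Rbbp4, a histone-binding WD-repeat protein shared with several other chromatin complexes, gave no such difference. It read 2113, 1820.3 and 2010.3 in siSpt6 and 2023, 1887 and 2236 in siControl, with overlapping groups and a log2 change of -0.05 (limma adjusted p = 0.845).

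ASF1 passes H3-H4 to both deposition routes. Asf1b, the paralog tied to proliferation, read 635, 552 and 602 in siSpt6 and 1071, 925 and 924 in siControl. The groups were clearly apart. The means were 597 ± 41.6 in siSpt6 and 974 ± 84.6 in siControl (SD, n = 3 each), a 1.63-fold lower level in siSpt6 (log2 change -0.71, SE 0.12, 95% interval -0.9999 to -0.41, limma adjusted p = 0.0114).

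Asf1a, the paralog that works mostly with HIRA, read 2166, 1955 and 2091 in siSpt6 and 2808, 2537 and 2309.6 in siControl. The groups did not overlap, but the gap between the nearest arrays was small. Its log2 change of -0.30 (SE 0.12, 95% interval -0.59 to -0.00297) did not pass the threshold (limma adjusted p = 0.161), and after quantile normalization the change was 0.00494 (adjusted p = 0.984). The paralogs were compared on the same arrays: the log2 difference Asf1b minus Asf1a was -1.77, -1.82 and -1.80 in siSpt6 and -1.39, -1.46 and -1.32 in siControl. The groups did not overlap, and Asf1b was lower relative to Asf1a in siSpt6 by 0.41 on the log2 scale. The exact two-sided permutation test gave p = 0.1, which is the smallest that 3 arrays against 3 allow, and 0.133 after Benjamini-Hochberg adjustment over the 4 pairs tested. All 4 pairs were chosen with earlier results of these data known, so their p-values are descriptive only.

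HIRA deposits H3.3 in active genes without replication. Hira read 51.1, 61.7 and 47.5 in siSpt6 and 63.5, 63.2 and 76.2 in siControl. The groups did not overlap, but the highest siSpt6 array came close to the lowest siControl array. The log2 change was -0.34 (SE 0.15, 95% interval -0.70 to 0.01, limma adjusted p = 0.178). The difference Chaf1a minus Hira within arrays averaged 1.20 ± 0.35 in siSpt6 and 1.86 ± 0.11 in siControl (log2, SD, n = 3 each), with no overlap, so that Chaf1a was 0.66 lower relative to Hira in siSpt6 (exact permutation p = 0.1, adjusted 0.133).

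DAXX and ATRX form the second H3.3 route. Daxx read 162, 180 and 225 in siSpt6 and 213, 224 and 224 in siControl. The siControl arrays were tight, and siSpt6 replicate 3 lay above all of them. The log2 change was -0.23 (SE 0.15, 95% interval -0.59 to 0.12, limma adjusted p = 0.351). Atrx read 49.3, 42.0 and 36.3 in siSpt6 and 62.1, 57.7 and 32.5 in siControl, and siControl replicate 3 was the lowest of the 6. Its log2 change was -0.21 (SE 0.27, 95% interval -0.84 to 0.42, limma adjusted p = 0.654), and -0.50 without that array (adjusted p = 0.120). Daxx minus Atrx within arrays averaged 2.15 ± 0.46 in siSpt6 and 2.17 ± 0.54 in siControl (log2, SD, n = 3 each; exact permutation p = 0.9, adjusted 0.9).

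**Figure D2:**
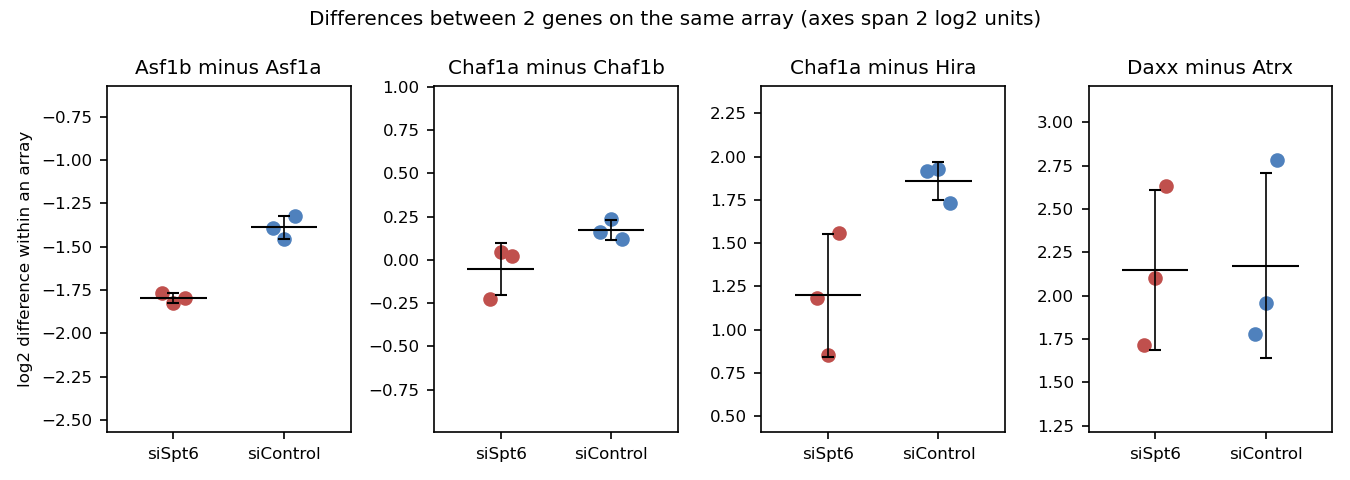
Log2 difference between 2 genes on the same array, for 4 pairs, in siSpt6 (left) and siControl (right); points are arrays, the line and bar are the mean and SD, and every axis spans 2 log2 units. The siSpt6 arrays lie below the siControl arrays for Asf1b minus Asf1a, Chaf1a minus Chaf1b and Chaf1a minus Hira, and the groups overlap for Daxx minus Atrx.

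Within CAF-1 itself the difference Chaf1a minus Chaf1b was -0.23, 0.05 and 0.02 in siSpt6 and 0.16, 0.23 and 0.12 in siControl, on the log2 scale. These groups did not overlap either, and Chaf1a was 0.23 lower relative to Chaf1b in siSpt6 (exact permutation p = 0.1, adjusted 0.133).

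NASP holds the soluble pool of H3-H4. Nasp read 1632, 1555 and 1578 in siSpt6 and 1910.4, 2762 and 2648 in siControl. The siSpt6 arrays were tight, while siControl replicate 1 stood well below the other two. The means were 1588 ± 39.1 in siSpt6 and 2440.2 ± 462 in siControl (SD, n = 3 each), and the log2 change of -0.60 (SE 0.16, 95% interval -0.99 to -0.21) narrowly missed the threshold (limma adjusted p = 0.0508). Without siControl replicate 1 it was -0.77 and passed (adjusted p = 0.0216).

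Nap1l1, which carries H2A-H2B, read 4388, 6209.8 and 4842 in siSpt6 and 6404, 8214 and 7317 in siControl. The second siSpt6 array came close to the lowest siControl array. The log2 change was -0.51 (SE 0.17, 95% interval -0.92 to -0.11, limma adjusted p = 0.0917), as large as that of Anp32e but with a wider spread between arrays.

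Anp32e, which strips H2A.Z from nucleosomes, read 824, 747 and 802 in siSpt6 and 1158, 1139 and 1073 in siControl. The groups did not overlap, and both were tight. The means were 791 ± 39.5 in siSpt6 and 1123 ± 44.2 in siControl (SD, n = 3 each), a 1.42-fold lower level in siSpt6 (log2 change -0.51, SE 0.11, 95% interval -0.77 to -0.24, limma adjusted p = 0.0242). That call was the least steady of the 4: it was lost after quantile (adjusted p = 0.138) and cyclic loess normalization (adjusted p = 0.0978) and without any 1 of the 6 arrays (adjusted p = 0.0501 to 0.0791).

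**Figure D3:**
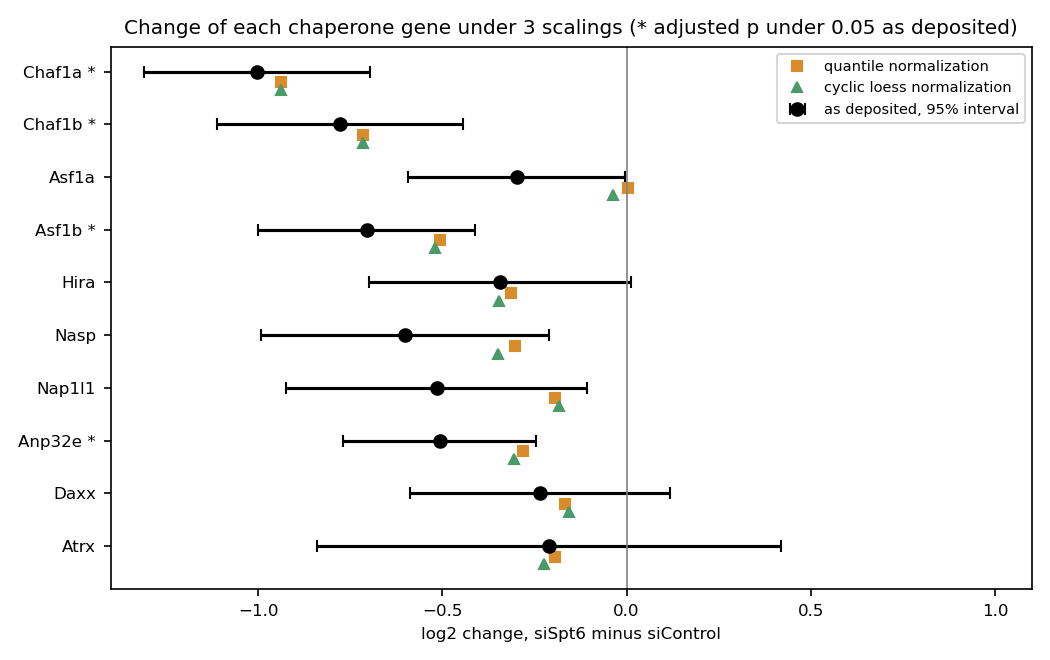
Log2 change (siSpt6 minus siControl) of each of the 10 genes in the deposited values with its 95% interval, and after quantile and cyclic loess normalization. Chaf1a and Chaf1b keep nearly the same change under all 3 scalings (-1.004, -0.94 and -0.94, and -0.78, -0.71 and -0.72), while Asf1a moves to 0.00494 and -0.04.

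The change of a probe was related to its brightness in these arrays. Among tested probes in 5 equal groups by mean intensity, the median log2 change was 0.08 in the dimmest group and -0.18 in the brightest, where 22.2% of probes were called lower. Asf1a, Asf1b, Nasp, Nap1l1 and Anp32e lay in the brightest group; Chaf1a, Chaf1b, Hira and Daxx lay in the next (median -0.03, 11.5% called lower) and Atrx in the middle group (median 0.02). After subtracting the median of its own group, the log2 change was -0.98 for Chaf1a, -0.75 for Chaf1b, -0.53 for Asf1b and -0.12 for Asf1a. It was -0.42 for Nasp, -0.34 for Nap1l1, -0.33 for Anp32e, -0.32 for Hira, -0.23 for Atrx and -0.21 for Daxx. In their brightness groups, 2.22% of probes had a lower change than Chaf1a, 5.17% than Chaf1b, 11.8% than Asf1b and 39.6% than Asf1a. For the called Anp32e that share was 22.2%, and for Hira, which was not called, 20.3%. For Nasp, Nap1l1, Atrx and Daxx it was 16.4%, 21.4%, 22.9% and 28.5%. Quantile normalization, which aligns these distributions, gave 1379 probes lower and 1853 higher (57.3% of calls higher), while the deposited values gave 1922 lower and 1603 higher (45.5%). After it 3 of the 10 genes fell, Chaf1a, Chaf1b and Asf1b (adjusted p = 0.00391, 0.0157 and 0.0366), against 6.39% of all probes called lower; after cyclic loess it was the same 3 genes (adjusted p = 0.00314, 0.0116 and 0.0289), against 7.26%. Whether the scaling or the cells set the lower level of bright probes was not tested.

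**Figure D4:**
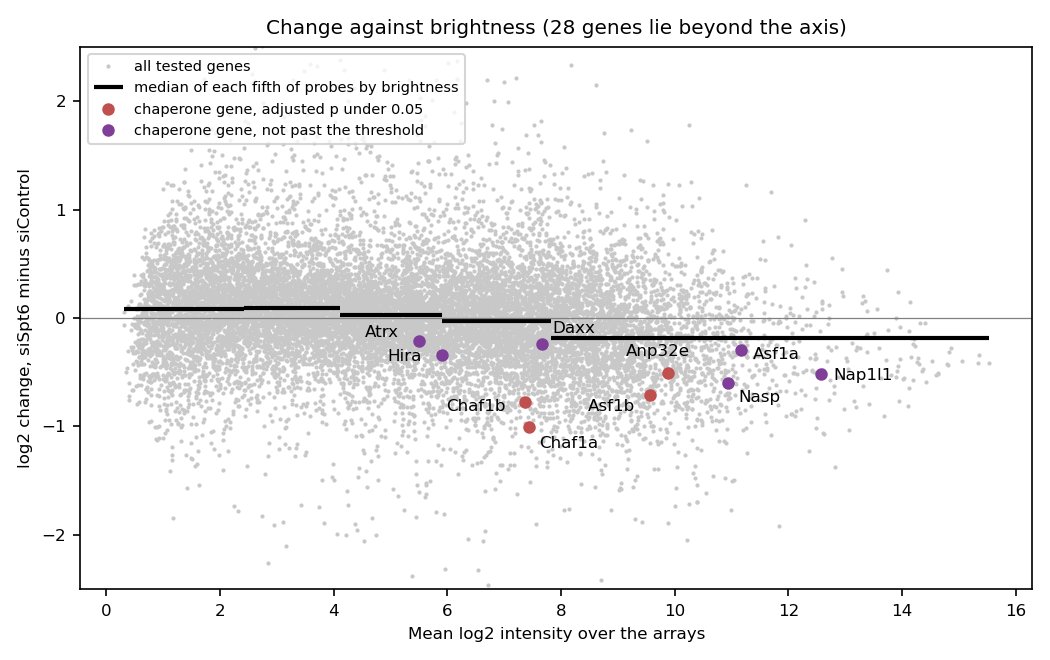
Log2 change (siSpt6 minus siControl) against mean log2 intensity for all tested genes (grey) and the 10 chaperone genes; black lines are the medians of 5 equal groups of probes by brightness. The median line falls to -0.18 in the brightest group, and Chaf1a and Chaf1b lie well below the line of their own group.

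Among 8 tested genes of CAF-1 and its partners at the fork, 3 of the 10 genes included, 6 fell and 0 rose. Their median log2 change was -0.70, and 8.9% of all tested probes were called lower. After quantile normalization 5 fell, against 6.39% of all probes, and after cyclic loess 5, against 7.26%. Mcm2, a helicase subunit that also binds H3-H4, read 328, 321 and 413 in siSpt6 and 646, 745 and 740.0 in siControl, a 2.02-fold lower level (log2 change -1.01, limma adjusted p = 0.00577). Mms22l, which forms with TONSL a reader of newly deposited H4, was 1.61-fold lower (adjusted p = 0.0120). Tonsl itself had a log2 change of -0.41 that did not pass (adjusted p = 0.121). Pcna, the sliding clamp that recruits CAF-1, was 1.58-fold lower at 3800.0 ± 157 in siSpt6 and 6038 ± 667 in siControl (SD, n = 3 each; adjusted p = 0.0160), but missed the threshold after quantile (adjusted p = 0.123) and cyclic loess normalization (adjusted p = 0.0885) and without siControl replicate 1, siControl replicate 2 or siSpt6 replicate 2 (adjusted p = 0.0557, 0.0552 and 0.0564).

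Other chaperones fell with differing steadiness. The listed chaperones and partners other than the 10 genes numbered 28 on the array, Supt6, the siRNA target, and the histone gene Cenpa included. Of these 27 were tested, of which 10 fell and 0 rose, with a median log2 change of -0.41. After quantile normalization 5 fell and 0 rose (median -0.20), and after cyclic loess 7 fell and 0 rose (median -0.24). Supt6 was among those 7 after cyclic loess (adjusted p = 0.0491), but was called neither as deposited nor after quantile normalization. The shares of all tested probes called lower were 8.9% as deposited, 6.39% after quantile normalization and 7.26% after cyclic loess. Of 10 tested genes listed as H2A-H2B chaperones or their relatives, Nap1l1 and Anp32e included, 6 fell and 0 rose. After either normalization 3 fell, and 3 without siControl replicate 1, siSpt6 replicate 2 or siSpt6 replicate 3. Anp32b, a relative of Anp32e, read 3390.0, 4124 and 2878 in siSpt6 and 8005, 8694 and 7451 in siControl, a 2.34-fold lower level (log2 change -1.23, adjusted p = 0.00433). Ncl and Npm3, which encode nucleolar proteins, were 1.90-fold and 1.69-fold lower (adjusted p = 0.00462 and 0.00883). These 3 calls passed under both normalizations and without any 1 array (adjusted p up to 0.0189 for Anp32b, 0.0209 for Ncl and 0.0343 for Npm3).

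Npm1, the abundant nucleolar histone chaperone, was 1.57-fold lower (adjusted p = 0.0185), a call lost after quantile normalization (adjusted p = 0.193), cyclic loess (adjusted p = 0.258) and without siControl replicate 1, siSpt6 replicate 2 or siSpt6 replicate 3 (adjusted p = 0.0567, 0.0612 and 0.0539). Anp32a was 1.51-fold lower (adjusted p = 0.0426), and that call was lost after quantile normalization (adjusted p = 0.203), after cyclic loess (adjusted p = 0.155) and without any 1 array but siControl replicate 3 (adjusted p = 0.0900 to 0.107). Nap1l4, the nearest relative of Nap1l1 measured, had a log2 change of -0.20 (adjusted p = 0.373), and Vps72, a subunit of the complexes that load H2A.Z, one of -0.15 (adjusted p = 0.458).

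Of 8 genes of HIRA and H3.3 deposition 1 fell (12.5%), and of 5 genes of H3-H4 import 1 fell (20%), against 8.9% of all tested probes. Counts of 1 in lists this short say little beside that share. After quantile normalization 0 genes fell in either list, and after cyclic loess 1 and 0. Dek, an H3.3-binding chromatin protein, was 1.58-fold lower (adjusted p = 0.0120), and just missed the threshold after quantile normalization (adjusted p = 0.05002). The HIRA complex subunits Ubn1, Ubn2 and Cabin1 had log2 changes of 0.27, -0.12 and 0.07 (adjusted p = 0.471, 0.526 and 0.863). Cabin1 was dim, at 7.45 to 10.4 in siSpt6 and 6.56 to 9.60 in siControl. That is the range of the T cell marker Cd8a (7.12 to 10.6 over the arrays), so the change of Cabin1 says little. Ubn1 read 30.5 to 52.0 in siSpt6 and 28.1 to 35.9 in siControl. In H3-H4 import, Rbbp7, the histone-binding partner of the acetyltransferase HAT1, was 1.68-fold lower (adjusted p = 0.00967; 0.0680 after quantile normalization and 0.0501 after cyclic loess). Hat1, the importin Ipo4 and Dnajc9 had log2 changes of -0.39, -0.22 and -0.46 (adjusted p = 0.145, 0.402 and 0.0576). None of the CENP-A loading genes passed: Hjurp, the CENP-A chaperone, and Mis18a had log2 changes of -0.47 and -0.30 (adjusted p = 0.0693 and 0.141).

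Of the chaperones that act with Spt6 in transcription, Iws1, its direct partner, read 103, 130.1 and 205 in siSpt6 and 63.3, 176 and 204 in siControl, with a spread too wide for a direction (log2 change 0.09, SE 0.47, adjusted p = 0.930). Spty2d1, the mammalian Spt2 protein, had a log2 change of 0.62 that missed the threshold (adjusted p = 0.0691). The histone variants that these chaperones carry gave no call among 6 tested: H2ax -0.54, Cenpa -0.49, Macroh2a1 -0.35, H2az2 0.13, Macroh2a2 0.18 and H2az1 0.24 on the log2 scale (adjusted p = 0.0603 to 0.781). H2az1, the substrate of ANP32E, ranged from 7498 to 10638 in siSpt6 and from 3449 to 13070.1 in siControl, so no difference could be seen over that spread.

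**Figure D5:**
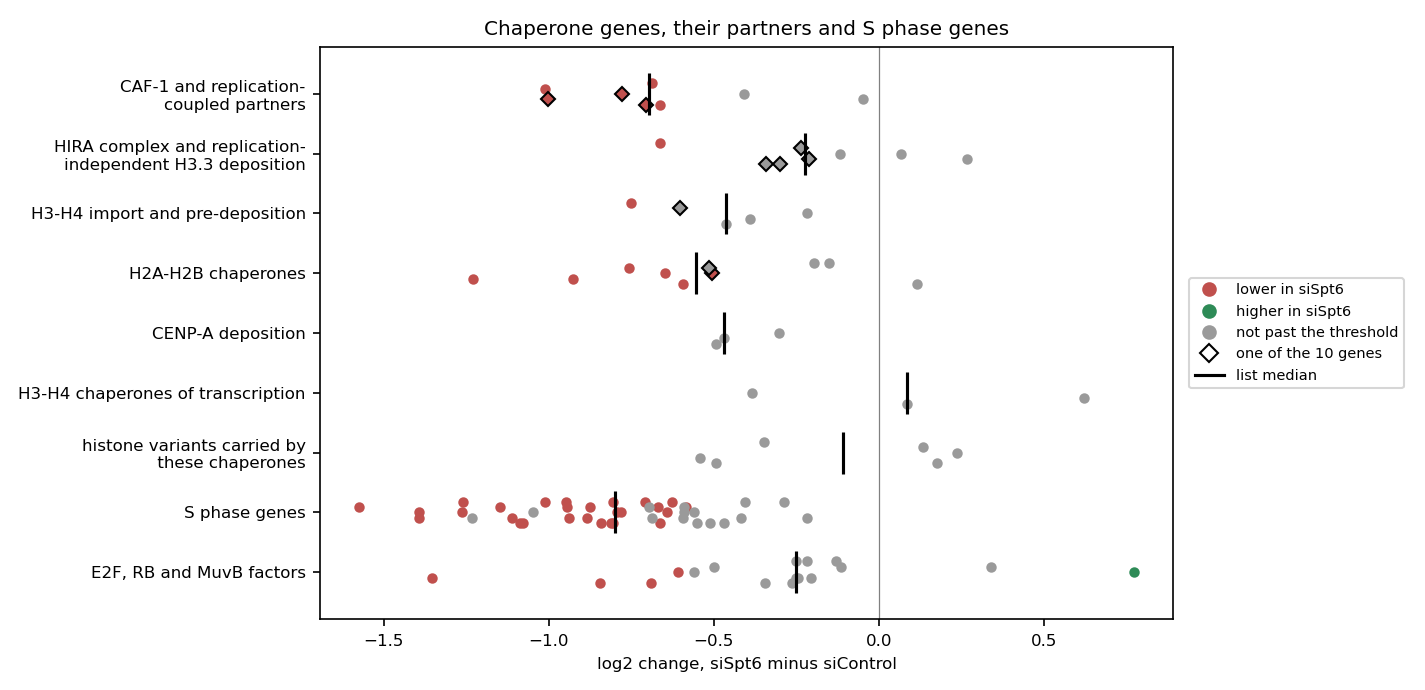
Log2 change (siSpt6 minus siControl) of every tested gene in 9 lists; diamonds are members of the 10 genes, black lines are list medians, and colour shows whether limma's adjusted p was under 0.05. The list of CAF-1 and its partners (median -0.70) and the S phase genes (median -0.80) lie furthest to the left, and the HIRA list (median -0.22) nearer 0. The CAF-1 list holds Chaf1a, Chaf1b and Asf1b themselves and shares Pcna and Mcm2 with the S phase list.

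S phase genes were also lower in siSpt6. Of 42 tested genes of an S phase list that leaves out the members, 27 fell (64.3%) and 0 rose. All 42 log2 changes were below 0, and the median was -0.80. After quantile normalization 22 fell (52.4%), and after cyclic loess 24 (57.1%). Among all tested probes the share called lower was 8.9% as deposited, 6.39% after quantile normalization and 7.26% after cyclic loess. In the brightest of the 5 groups by mean intensity it was 22.2% as deposited. The S phase genes were not compared with probes of like brightness. Cdca7 and Hells, partners in a chromatin remodelling complex, were 2.98-fold and 2.63-fold lower (adjusted p = 0.000656 and 0.00141). Tyms, which makes thymidylate, read 340, 353 and 362 in siSpt6 and 923, 915 and 932 in siControl (2.63-fold lower, adjusted p = 0.000717), and the cyclin gene Ccne1 was 2.40-fold lower (adjusted p = 0.00143). The lists of S phase genes and of CAF-1 partners share Pcna and Mcm2. Among the listed chaperones and partners outside both the 10 genes and the S phase list, 8 of 25 fell and 0 rose (median log2 change -0.39). After quantile normalization 4 fell (median -0.16), and after cyclic loess 6, Supt6 among them (median -0.18). In RNA from whole cultures, fewer cells in S phase and less of these RNAs per cell cannot be told apart; the part of either in the lower levels of Chaf1a, Chaf1b and Asf1b was not tested.

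Of 17 tested E2F, RB and MuvB factors, which control such genes, 4 fell and 1 rose. Of all tested probes, 8.9% were called lower and 7.43% higher. Among the 17 log2 changes 15 were below 0, with a median of -0.25. Mybl2, the MYB protein of the MuvB complex, was 2.55-fold lower at 76.3 ± 10.3 in siSpt6 and 194 ± 17.3 in siControl (SD, n = 3 each; adjusted p = 0.00227). Tfdp1, the dimer partner of E2F proteins, and E2f1 were 1.80-fold and 1.61-fold lower (adjusted p = 0.00795 and 0.0123). E2f3 was 1.53-fold lower (adjusted p = 0.0217), but not without siControl replicate 1 or 2 or siSpt6 replicate 1 or 2 (adjusted p = 0.0631 to 0.0712). Rb1, the retinoblastoma gene, was higher by 0.78 on the log2 scale (adjusted p = 0.0492), a call lost after quantile normalization (adjusted p = 0.0544) and without any 1 array but siSpt6 replicate 2 (adjusted p = 0.0547 to 0.123).

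Profiles over the 6 arrays were compared by the root mean square distance between mean-centred log2 values, among 7954 named genes with 6 values and at least median brightness. The genes nearest to Chaf1a were Cldn12 (0.0297), Lpin1 (0.0367), Mthfd1 (0.0453), Mybbp1a (0.0505) and Tmem176a (0.0569). Those nearest to Chaf1b were Cd93 (0.0379), the deubiquitinase gene Usp1 (0.0459), the DNA polymerase alpha subunit gene Pola2 (0.0463), Pum3 (0.0473) and Trim28 (0.0487). Chaf1b ranked 211 by distance from Chaf1a (0.146), and Asf1b ranked 162 from Chaf1b (0.122). Across the 10 genes siSpt6 replicate 2 was the lowest siSpt6 array for 6, among them Chaf1a, Chaf1b, Asf1b and Anp32e, yet the highest for Hira and Nap1l1.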

How the data were processed

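The authors deposited linear intensity values for each array, in arbitrary units. Per the labels' protocols, RNeasy-purified RNA was made into amino allyl RNA, labelled with Cy5 and hybridised to TORAY arrays. The sources used here do not name a background correction or normalization; the 6 array medians were between 29.97 and 30.00. Cells reading null (4.69% to 8.29% of probes per array) were taken as missing, and no detection limit was part of the values used.

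Probes were named from the platform's gene table, with older symbols updated through RefSeq (GRCm38.p6); 16631 of 23473 probes had 1 symbol and 6842 none. Deposited intensities were log2-transformed without a pseudocount. Probes with at least 2 values per group (21584) were fitted with limma 3.58.1 in R 4.3.3 (lmFit and eBayes, group as the only term, two-sided), with Benjamini-Hochberg adjustment over all of them and a threshold of 0.05. Changes are siSpt6 minus siControl; folds compare geometric means, while printed means and SD are of linear intensities. A gene is represented by its brightest probe. Differences between 2 genes on one array were compared by exact two-sided permutation over samples. The code of the limma fit was tested on simulated data. Members, gene lists, pairs and motifs were chosen with earlier results of these data known, and the GCGGGAA motif after the windows were seen. Named are the 10 genes, Supt6, genes of the chaperone and variant lists, up to 4 genes each way with the smallest adjusted p from the other 2 lists, and 5 nearest profiles each for Chaf1a and Chaf1b. Alternatives were quantile, cyclic loess and median scaling, bright or complete probes, a pseudocount, trend and robust eBayes, array weights, a block for the replicate number, a threshold of 0.01 and each array left out.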

Additional observations from a re-analysis of the deposited data

How the results depend on the processing

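Chaf1a, Chaf1b and Asf1b were called lower under all 15 alternative fits. Over the 10 genes, 133 of 150 refitted changes kept their direction and side of the threshold, 8 lost a call (all Anp32e), 8 gained one (Nasp and Nap1l1) and 1 turned, Asf1a after quantile normalization (0.00494). The count of genes that fell was 4, and 3 to 4 without 1 array; at a threshold of 0.01 it was 1 (Chaf1a). The count of changed probes was 3525, 2099 to 2522 without 1 array and 1354 at a threshold of 0.01. Nap1l1 passed with trend and robust eBayes (adjusted p = 0.0243) and among bright probes (0.0298). Asf1b minus Asf1a was -0.44 to -0.37 without 1 array, Chaf1a minus Chaf1b -0.27 to -0.14 and Chaf1a minus Hira -0.84 to -0.49. Daxx minus Atrx, -0.02 as deposited, turned to 0.0270 after quantile normalization and 0.0695 after cyclic loess, and ran from -0.27 to 0.28 without 1 array. Deviations from the group mean gave r of 0.351, 0.0759 and 0.262 for same-numbered samples and -0.292 to 0.0159 for differently numbered ones. Every siSpt6 sample had its highest r with its own number, by little for replicate 2. That is a hint from the data and short of a pairing, since deviations within a group of 3 are tied to each other. With the replicate number as a block 3594 probes were called and 5 of the 10 genes fell, Nap1l1 (adjusted p = 0.0389) joining the 4. No background or detection measure was part of the values used, so signal over background cannot be judged. Background correction and the slide as a block were not run.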
